A study of Mus musculus with 33 samples.

Results

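A pair of wild-type sets of C57BL/6 mouse embryonic stem cells (ESCs), with 3 RNA-seq libraries each, was compared gene by gene. The sets, called here the NK set and the WT set after their titles, are 6 of the 33 libraries of a study of the *Hp1* family, which reads H3K9 methylation. Both carry the same labels (genotype WT, strain C57BL/6, mouse embryonic stem cell, no allele or agent), and their libraries were chosen by title alone. The NK set is deposited in the tables of the *Hp1α*, *Hp1β* and *Hp1γ* single mutants, the *Hp1α/β* double mutant and the triple mutant, and the WT set in those of the *Hp1α/γ* and *Hp1β/γ* double mutants. The study's methods give growth in serum and LIF on inactivated mouse embryonic fibroblasts, which were removed by plating on gelatin, and 3 biological replicates. The labels do not say whether libraries of a set came from separate cultures, so p-values measure the spread between these libraries. A legend gives, for the triple mutant, cells without *Hp1α* and *Hp1β* and with floxed *Hp1γ* that received Cre or a control vector, where the labels of the NK set name WT. No label gives a passage, date or clone, so culture, library preparation and processing of the tables cannot be told apart as sources of a difference between the sets.

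ESCs keep the capacity to form all tissues of the embryo through a network around *Oct4* (listed as *Pou5f1*), *Sox2* and *Nanog*. In serum with LIF, LIF acts through STAT3 to uphold naive factors such as *Klf4*, *Esrrb* and *Tfcp2l1*, and FGF4 acting through ERK moves cells towards a formative or primed state marked by *Otx2*, *Fgf5* and *Dnmt3b*. ESCs also draw heavily on glycolysis, on cholesterol synthesis, which SREBP factors control, and on amino acid supply, which ATF4 senses.

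The estimated counts deposited by the authors totalled 20627149 to 21668932 per library in the NK set and 20227691 to 22232704 in the WT set. Values below are CPM, counts scaled to a common library size with TMM factors, and a log2 fold change is the WT set over the NK set. Sizes of rises and falls are given on that log2 scale, and p-values are from the edgeR quasi-likelihood fit, adjusted by Benjamini-Hochberg over all genes tested. Across genes, which are not independent replicates, Pearson's r of log2 CPM was 0.993 to 0.995 between libraries of one set and 0.966 to 0.967 between libraries of different sets. Of 14054 protein-coding and 1954 other genes tested, 909 (5.68%) were called, which here needs both an adjusted p below 0.05 and a change of over 1 on the log2 scale, 409 (2.55%) of them higher and 500 (3.12%) lower in the WT set. At the adjusted p alone, 3972 genes (24.8%) differed, 1967 of them (12.3%) higher and 2005 (12.5%) lower. The median log2 fold change of all genes tested was 0.0031, and 13503 (84.4%) lay within 0.5 of 0. In all, 896 of the called genes had groups that did not overlap, as did 39.6% of all genes tested (19.7% higher and 19.9% lower in the WT set). With 3 libraries against 3, an exact permutation test of a single gene cannot go below p = 0.1, so all p-values here come from the fit across genes.

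Both sets carried the markers of ESCs. In TPM, the length-scaled values that the authors deposited, *Pou5f1* had a mean of 1157 in the NK set and 961 in the WT set, *Sox2* 238 and 248, *Nanog* 143 and 139, *Esrrb* 125 and 162, and *Zfp42*, also called Rex1, 51 and 44.2. Of the primitive endoderm factors, *Gata4* had 0.80 ± 0.104 CPM in the NK set and 0.838 ± 0.090 CPM in the WT set (SD, n = 3), and *Gata6* and *Sox17* did not pass the filter on low counts. None of the 2-cell-like list, which includes *Zscan4c*, *Zscan4d* and *Zscan4f*, passed it either, and its 18 genes summed to 0.0925 to 0.145 CPM in the NK set and 0.444 to 0.823 CPM in the WT set. The targets of the study's mutants were near one another in the sets. *Cbx5*, *Cbx1* and *Cbx3*, which encode HP1α, HP1β and HP1γ, had log2 fold changes of −0.094, −0.17 and 0.0025, and only *Cbx1* passed (edgeR adjusted p = 0.00552). *Cbx5* ran from 479 to 490.4 CPM in the NK libraries and 439 to 476 CPM in the WT libraries, against 199 to 208 CPM in the *Hp1α/β* mutant, and *Cbx1* from 430.4 to 448 CPM and 373 to 409 CPM, against 94.7 to 97.5 CPM. Neither set thus had the lower levels of the *Hp1α/β* mutant.

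No pluripotency gene was called between the sets (0 of 53 by edgeR, 0 by DESeq2 and 0 at an unadjusted p under 0.05 with the same fold). Of all genes tested 5.68% were called, but of protein-coding genes 3.24%, and of genes with a mean of 100 CPM or more 1.12%, so a count of 0 is near the background for genes of this kind. The lists held 3 core genes, 16 genes shared by pluripotent states, 17 naive genes and 17 formative and primed genes, all of which were tested. Their median log2 fold changes were −0.024, −0.066, −0.11 and −0.064. The sign turned for the core list with GC content and length offsets (0.066) and for the formative and primed list without the first WT library (0.001) or the second NK library (0.024). At the adjusted p alone, 25 of the 53 (47.2%, against 24.8% of all genes tested) differed, 17 lower and 8 higher in the WT set. Of protein-coding genes 23.5% did. No share at this threshold was taken for genes of similar level, so these shares are not matched for level. In 47 of the 53 the change was under 0.5 on the log2 scale, and in 50 the whole 95% confidence interval lay within a 2-fold change. Without the first NK library, *Fgf5* alone passed both thresholds, at a log2 fold change of 1.36 (adjusted p = 0.0439).

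**Figure D1:**
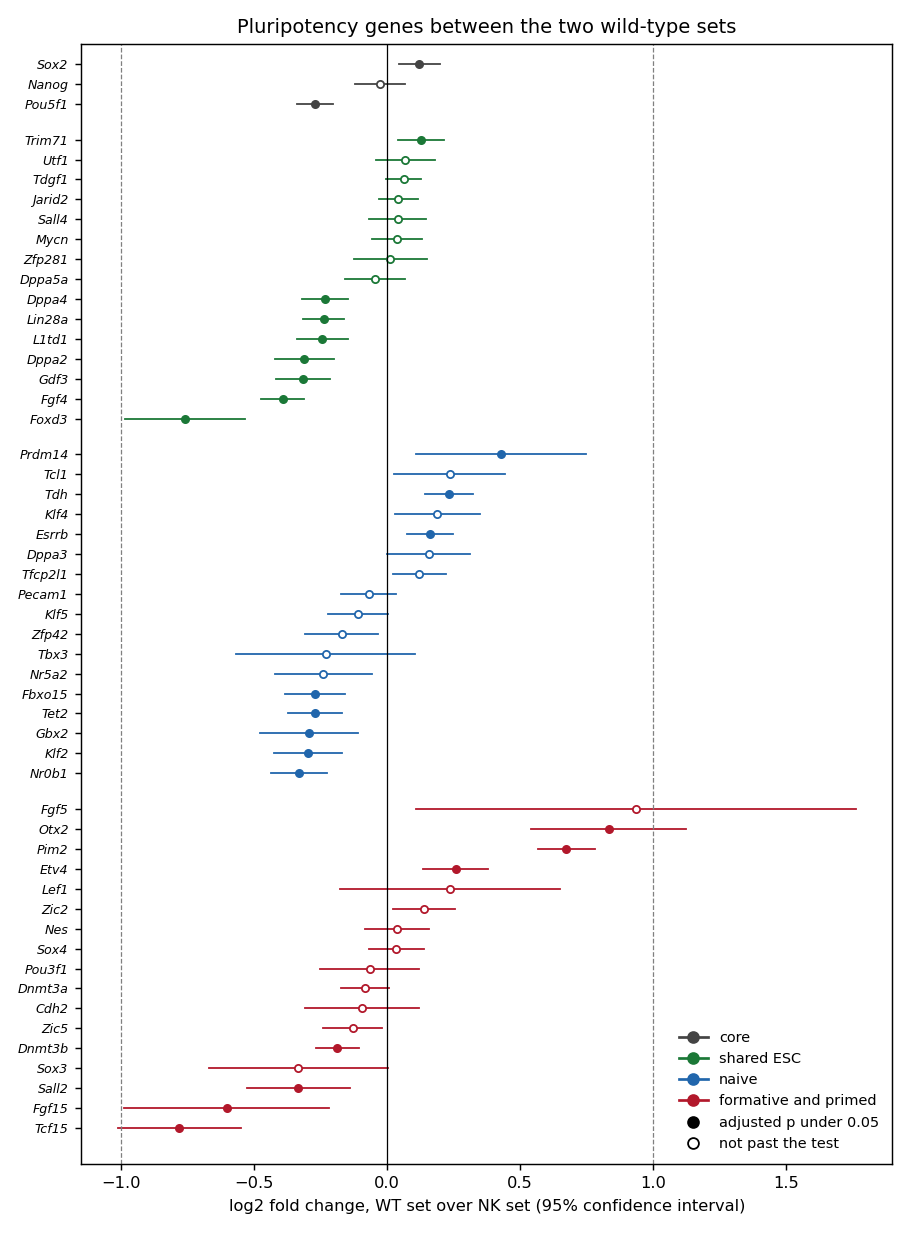
Log2 fold change of pluripotency genes, WT set over NK set, with 95% confidence intervals (horizontal axis), genes in rows by list and n = 3 libraries per set. Dashed lines mark a 2-fold change, and *Foxd3*, *Tcf15*, *Fgf15*, *Pim2*, *Otx2* and *Fgf5* are the genes beyond 0.5 on either side.

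Of the core genes, *Nanog* did not differ beyond the spread of its libraries. It had 201, 208 and 209.9 CPM in the NK libraries and 199, 198 and 212 CPM in the WT libraries, and its log2 fold change was −0.024 (95% confidence interval −0.12 to 0.07). *Oct4* (*Pou5f1*, chr17:35506018-35510772 in GRCm38) had 961, 958 and 950.0 CPM in the NK libraries and 792, 811 and 777 CPM in the WT libraries, a log2 fold change of −0.27 ± 0.031 (SE, adjusted p = 9.16e-06). All WT libraries thus lay below all NK libraries, in a gene whose own libraries varied by little. *Sox2*, the partner of OCT4 on DNA, had 353, 363 and 355 CPM against 389.9, 391 and 385 CPM, a rise of 0.12 (adjusted p = 0.0206) without overlap. In a fit of all 27 libraries of both kinds of table neither *Pou5f1* (adjusted p = 0.112) nor *Sox2* (0.107) passed, and *Sox2* did not pass without any one of the NK libraries (0.10, 0.0508 and 0.0974).

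Of 16 genes shared by pluripotent states, 7 were lower and 1 higher in the WT set, and 8 did not pass. *Foxd3*, a forkhead factor needed to keep ESCs undifferentiated, fell the most, from 22.7, 23.2 and 21.3 CPM in the NK libraries to 12.3, 15.8 and 11.5 CPM in the WT libraries, with a log2 fold change of −0.76 ± 0.11 (SE, adjusted p = 6.79e-05). *Fgf4*, the ligand of the FGF pathway in these cells, had 279, 277 and 274 CPM against 209, 213 and 210.0 CPM and fell, with a log2 fold change of −0.39 (adjusted p = 1.69e-06). In both genes the sets were apart in every library. Within the sets, *Fgf4* varied by 2.26 and 2.12 CPM (SD). *Gdf3*, *Dppa2*, *L1td1*, *Lin28a* and *Dppa4*, which mark the pluripotent state, also fell, with log2 fold changes of −0.32, −0.31, −0.24, −0.24 and −0.23, while *Trim71*, an RNA-binding ubiquitin ligase gene, rose by 0.13. *Trim71* did not pass in the fit of 27 libraries, with GC content and length offsets (0.047, adjusted p = 0.318), or without the second or the third WT or the first or second NK library. *Dppa5a*, *Zfp281*, *Mycn*, *Sall4*, *Jarid2*, *Tdgf1* and *Utf1* did not pass the test, with log2 fold changes between −0.043 and 0.07.

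Naive factors went both ways. The transcription factor genes *Nr0b1*, *Klf2* and *Gbx2*, the 5-methylcytosine oxidase gene *Tet2* and the OCT4 target *Fbxo15* fell, with log2 fold changes of −0.33, −0.30, −0.29, −0.27 and −0.27. *Prdm14*, which represses DNA methyltransferase genes in naive cells, the threonine dehydrogenase gene *Tdh* and *Esrrb* rose by 0.43, 0.23 and 0.16. *Klf2*, whose protein ERK marks for degradation, had 537, 555 and 532 CPM in the NK libraries and 394, 494 and 435 CPM in the WT libraries, and its SD was 12 CPM in the NK set and 50.3 CPM in the WT set. *Esrrb*, an orphan nuclear receptor, had 328, 331 and 324 CPM against 351, 382 and 368 CPM. For both genes the sets did not overlap. *Esrrb* did not pass with GC content and length offsets (0.064, adjusted p = 0.0975) or in the fit of 27 libraries (adjusted p = 0.0658), where *Klf2*, *Gbx2*, *Tet2* and *Tdh* did not pass either. *Gbx2* also missed without the second NK library (−0.19), and *Prdm14* by DESeq2 (adjusted p = 0.135), with RLE size factors and without the second or the third library of either set (0.30 to 0.48). The members *Klf4*, *Tcl1*, *Dppa3*, *Tfcp2l1*, *Pecam1*, *Klf5*, *Zfp42*, *Tbx3* and *Nr5a2* did not pass the adjusted p, and their values ran from −0.24 to 0.24. The LIF receptor genes *Lifr* and *Il6st* and *Stat3* had log2 fold changes of 0.053, 0.20 and 0.017, of which *Il6st* passed. In the LIF and STAT3 list 2 of 12 genes rose (*Socs3* and *Il6st*) and 3 fell (*Pim3*, *Mcl1* and *Pim1*). That is 41.7%, against 24.8% of all genes tested.

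The 3 largest log2 fold changes of the pluripotency lists, those of *Fgf5*, *Otx2* and *Tcf15*, were all in the formative and primed list. *Tcf15*, a bHLH factor of cells primed for differentiation, had 37.3, 40.1 and 40.1 CPM in the NK libraries and 24.2, 26.7 and 17.6 CPM in the WT libraries, a log2 fold change of −0.78 ± 0.11 (SE, adjusted p = 6.18e-05). *Otx2*, the homeobox gene that opens the formative state, had 5.45, 5.66 and 7.41 CPM against 11, 10.1 and 11.9 CPM and rose by 0.83 ± 0.14 (SE, adjusted p = 3.04e-04). *Pim2*, a serine kinase gene, had 81.9, 80.2 and 82.8 CPM against 127, 127 and 137 CPM and rose by 0.68 (adjusted p = 6.66e-08). For each of these genes the libraries of the sets did not overlap. *Etv4*, an ERK-responsive ETS factor, rose by 0.26, and the de novo DNA methyltransferase gene *Dnmt3b*, *Sall2* and *Fgf15* fell, with log2 fold changes of −0.19, −0.33 and −0.60. *Fgf5*, the standard marker of the primed state, was near the lower limit of these libraries at 0.97, 0.325 and 0.63 CPM against 1.38, 0.987 and 1.33 CPM, and its log2 fold change of 0.94 (95% confidence interval 0.11 to 1.76) did not pass (adjusted p = 0.0943). *Dnmt3a*, *Pou3f1*, *Sox3*, *Sox4*, *Lef1*, *Zic2*, *Zic5*, *Nes* and *Cdh2* were also not past the test. *Fgf15* did not pass by DESeq2 (adjusted p = 0.0732) or without the first or second WT or the third NK library (−0.51 to −0.58), *Sall2* without the second or the third NK library, and *Etv4* and *Fgf15* in the fit of 27 libraries.

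The glycolysis, hypoxia, cholesterol synthesis and amino acid response lists, called metabolic here, had medians larger in size than those of the pluripotency lists. In them most members of a pathway moved in one direction by less than 2-fold. Members of these lists were named after their values were seen, except *Ndufa4l2*, the only one called. At the adjusted p alone, 16 of 18 glycolysis genes rose, against 12.3% of all genes tested, and none fell, with a median of 0.42. In the hypoxia list 13 of 17 rose and 1 fell (median 0.47), and in the cholesterol synthesis list 21 of 24 rose and none fell (median 0.37). The amino acid response list went the other way, with 20 of 27 genes lower, none higher and a median of −0.28, while 12.5% of all genes tested were lower. Counted in the direction against each list, DESeq2 gave 0 genes in the glycolysis, cholesterol and amino acid lists, and an unadjusted p under 0.05 in edgeR gave 0, 0 and 1. In a fit of all 27 libraries of both kinds of table, 10 amino acid response genes were lower (not *Cebpb*, *Nupr1*, *Asns*, *Phgdh*, *Psat1* or *Psph*), and with the counts of overlapping genes summed their median was −0.15. Higher in the fit of 27 libraries were 15 glycolysis, 10 hypoxia and 17 cholesterol synthesis genes, and DESeq2 gave 18 cholesterol synthesis genes. The median of all genes tested was 0.0031, and their quartiles were −0.14 and 0.17 on the log2 scale.

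**Figure D2:**
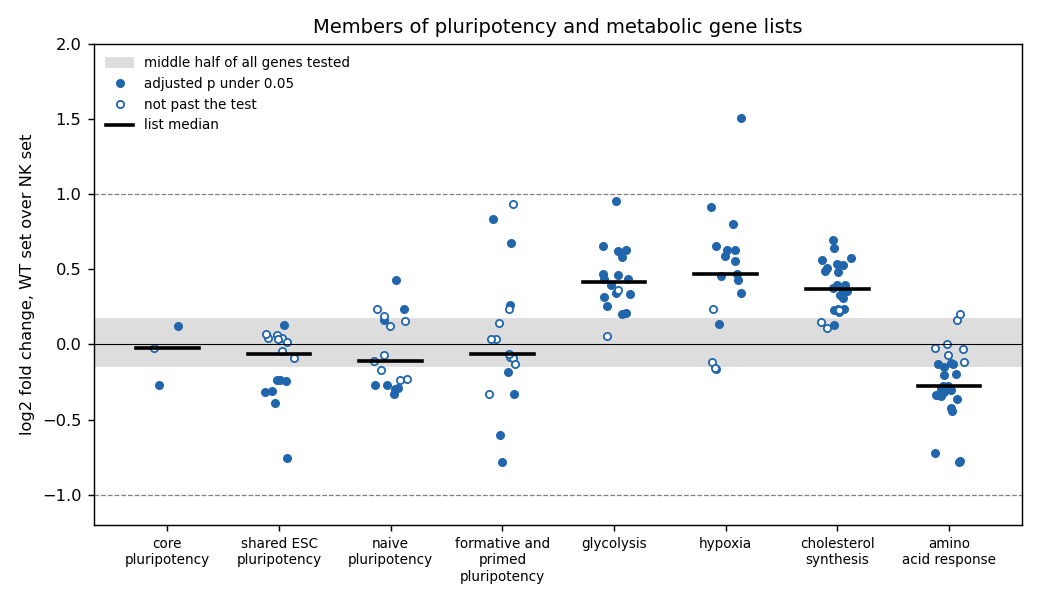
Log2 fold change, WT set over NK set (vertical axis), of each tested member of 4 pluripotency and 4 metabolic lists, filled where the adjusted p was under 0.05, with a bar at each list's median. The grey band spans the quartiles of all 16008 genes tested. The medians of glycolysis, hypoxia and cholesterol synthesis lie above it, and that of the amino acid response below it.

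In glycolysis the rise took in transporters and enzymes alike. The glucose transporter gene *Slc2a1* (chr4:119108711-119137983, which encodes GLUT1) had 402, 419.9 and 417 CPM in the NK libraries and 616, 678 and 659 CPM in the WT libraries, a log2 fold change of 0.66 ± 0.041 (SE, adjusted p = 7.12e-09). Enolase, *Eno1*, had 2265, 2281 and 2255 CPM against 3318, 3615 and 3546 CPM and rose by 0.62 (adjusted p = 5.80e-10). The aldolase gene *Aldoc* had 35, 33.6 and 32.3 CPM against 59.3, 69.7 and 66.1 CPM and rose the most of the list, by 0.95 (adjusted p = 2.18e-08). In all of these every WT library lay above every NK library. *Slc2a3*, *Aldoa*, *Pgk1* and *Gpi1* rose by 0.63, 0.58, 0.47 and 0.43, and *Ldha*, which makes lactate, by 0.33. The smallest rises were in *Pkm* and *Gapdh*, at 0.20 and 0.21, and *Gapdh* did not pass in the fit of 27 libraries (adjusted p = 0.349). The members not past the test were *Hk2*, at 0.054 (95% confidence interval −0.028 to 0.14), and a second gene identifier with the symbol *Aldoa*, with under 1 CPM in the mean of either set.

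Among genes known to respond to HIF, *Ndufa4l2*, a paralog of a mitochondrial respiratory chain subunit, was the called member. It had 4.48, 3.76 and 4.46 CPM in the NK libraries and 11.5, 11.8 and 12.7 CPM in the WT libraries, a log2 fold change of 1.51 ± 0.13 (SE, adjusted p = 2.63e-07), and its exons overlap those of *Shmt2*, which had 239.5 ± 8.55 and 221 ± 18.4 CPM (SD, n = 3). Summed over both genes, the locus had a log2 fold change of −0.071 (adjusted p = 0.35). *Ddit4*, an inhibitor of mTORC1, had 111, 122 and 119.8 CPM against 224, 223 and 218 CPM and rose by 0.92 (adjusted p = 9.83e-10). *Ankrd37*, *Adm*, *Bnip3*, *P4ha1* and *Egln3*, which include a mitophagy receptor, a collagen prolyl hydroxylase and a HIF prolyl hydroxylase gene, rose by 0.80, 0.65, 0.63, 0.63 and 0.59. *Kdm3a*, a histone H3K9 demethylase gene, fell (log2 fold change −0.17, adjusted p = 0.0165), and *Vegfa*, *Car9* and *Car12* had −0.11, −0.16 and 0.24 and did not pass. The fall of *Kdm3a* was lost in the fit of 27 libraries, with GC content and length offsets, and without the second or the third WT or the first or second NK library. The rise of *Adm* was also lost in the fit of 27 libraries (adjusted p = 0.112).

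The rise in cholesterol synthesis ran along the pathway. *Dhcr7*, which makes the last step to cholesterol, had 85.8, 85.9 and 79.2 CPM in the NK libraries and 126, 135 and 145 CPM in the WT libraries, a log2 fold change of 0.69 ± 0.058 (SE, adjusted p = 2.54e-07). Lanosterol synthase, *Lss*, had 109, 109.7 and 111 CPM against 171, 176 and 168 CPM and rose by 0.64 (adjusted p = 3.14e-08). The sets were fully apart for both of these. *Fdps*, *Mvd* and *Msmo1* rose by 0.57, 0.56 and 0.53, and the squalene synthase gene *Fdft1* and the SREBP regulator *Insig1* by 0.31 and 0.40. *Hmgcs1* rose by 0.13, which was lost in the fit of 27 libraries and without the third WT or any one NK library (adjusted p up to 0.235), and *Pmvk* and *Hsd17b7*, at 0.11 and 0.23, did not pass.

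In the amino acid response, the factor *Atf4* itself had 291, 305 and 302 CPM in the NK libraries and 235, 245 and 248 CPM in the WT libraries, a log2 fold change of −0.30 ± 0.041 (SE, adjusted p = 4.76e-05). *Cth*, which makes cysteine, had 207, 205 and 215 CPM against 124, 123 and 119 CPM a log2 fold change of −0.77 (adjusted p = 3.21e-09). The cystine transporter gene *Slc7a11* had 6.01, 6.63 and 6.25 CPM against 4.15, 3.68 and 3.17 CPM a log2 fold change of −0.78 (adjusted p = 0.0017). Every WT library lay below every NK library for these genes. *Cebpb*, a partner of ATF4, and the stress genes *Trib3*, *Nupr1*, *Chac1* and *Sesn2* fell, with log2 fold changes of −0.72, −0.45, −0.42, −0.36 and −0.35, and the serine pathway genes *Phgdh*, *Psat1* and *Psph* and the asparagine synthetase gene *Asns* fell less, with −0.20, −0.12, −0.28 and −0.20. The fall of *Cebpb* was lost without the second NK or the third WT library. That of *Psat1* was lost without the first or the third NK library, and that of *Psph* without the first NK or the second WT library. *Ddit3*, *Pycr1* and *Slc7a5*, at 0.20, 0.16 and 0.0046, did not pass. The unfolded protein response, which shares *Atf4* with this pathway, had 4 of 15 genes lower and none higher, with a median of −0.043. Of all genes tested 12.5% were lower.

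**Figure D3:**
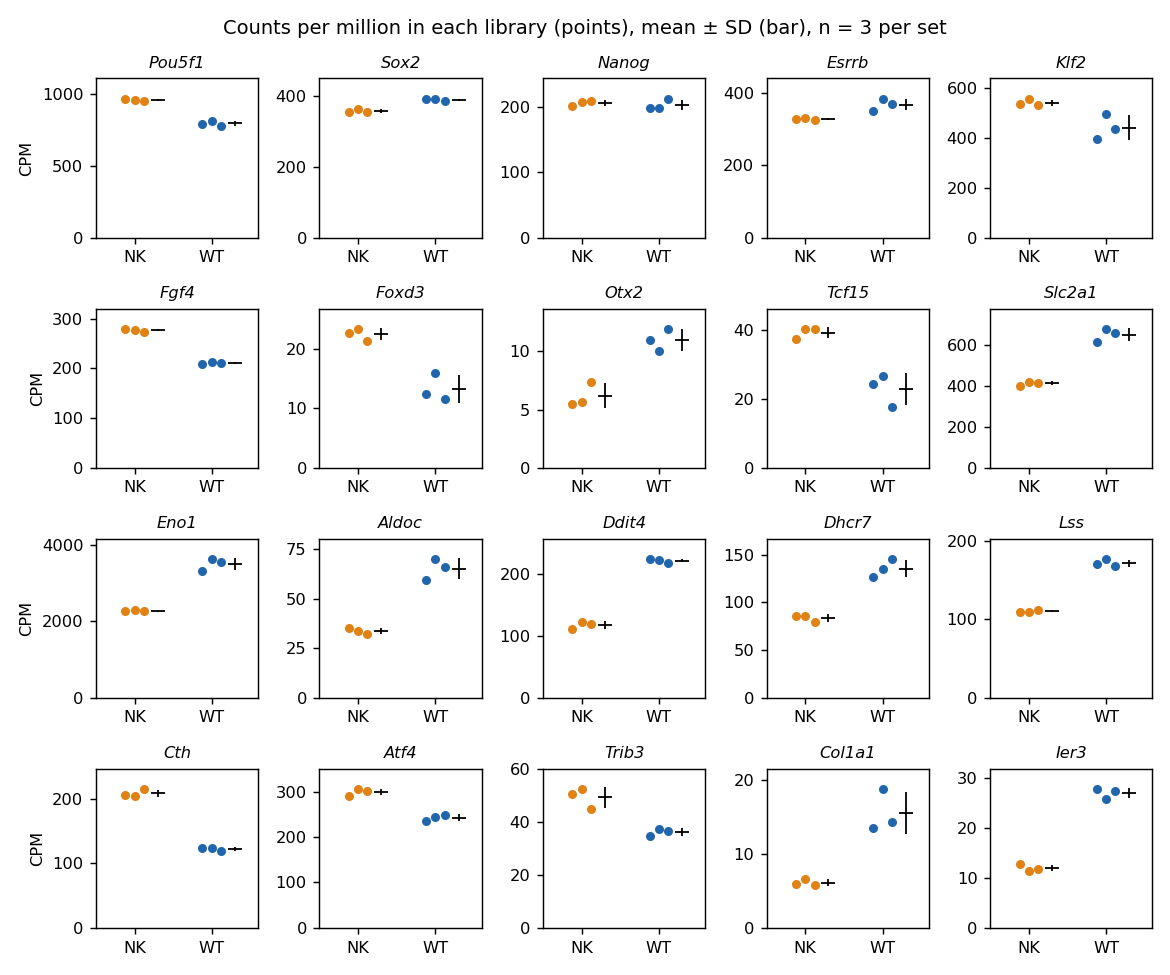
CPM of 20 genes (vertical axes, each from 0) in each of the 3 libraries of the NK set (orange) and the WT set (blue), with the mean ± SD beside them. *Nanog* overlaps between the sets, and in the other panels the 3 WT libraries lie together above or below the 3 NK libraries.

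Promoter sequences of all tested members of the metabolic lists, whether they moved or not, were read for motifs of the factors named above. The window was the 250 bases upstream of each RefSeq transcript start (GRCm38.p6), on both strands. The promoters of *Slc2a1*, *Ddit4*, *Slc7a11* and *Nupr1* are shown so that the HIF and ATF4 motifs can be read beside the values of these genes. The core of the HIF site, ACGTG, was present for 8 of 16 glycolysis genes and 9 of 15 hypoxia genes that had such a sequence, against 24.7% of all 11563 genes tested that had one. TGATGNAA, the element that ATF4 binds with C/EBP factors, was present for 8 of 23 amino acid response genes against 2.48% of all. The sterol element TCACNCCAC was present for 1 of 16 cholesterol synthesis genes, *Hmgcs1*, against 1.25% of all. Matches of different motifs were counted separately also where they overlap, and a match describes the letters of the window and not a bound site. The hypoxia and amino acid lists were chosen as known responses, so their shares describe that choice of genes. Activity of HIF or ATF4 was not tested. In the sequences below, written 5′ to 3′ on the strand of the gene, capitals mark each match to the motif of that list on either strand.
*Slc2a1* (chr4:119108495-119108744, plus strand): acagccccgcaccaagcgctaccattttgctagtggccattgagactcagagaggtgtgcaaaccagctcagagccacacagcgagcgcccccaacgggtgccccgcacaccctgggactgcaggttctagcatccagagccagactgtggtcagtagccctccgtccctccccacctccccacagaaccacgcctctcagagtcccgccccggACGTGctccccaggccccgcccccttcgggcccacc
*Ddit4* (chr10:59951771-59952020, minus strand): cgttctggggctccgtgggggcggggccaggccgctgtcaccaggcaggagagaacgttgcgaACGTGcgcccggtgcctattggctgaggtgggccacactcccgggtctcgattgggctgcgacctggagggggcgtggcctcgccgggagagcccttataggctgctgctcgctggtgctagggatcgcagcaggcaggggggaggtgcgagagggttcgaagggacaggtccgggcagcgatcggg
*Slc7a11* (chr3:50443614-50443863, minus strand): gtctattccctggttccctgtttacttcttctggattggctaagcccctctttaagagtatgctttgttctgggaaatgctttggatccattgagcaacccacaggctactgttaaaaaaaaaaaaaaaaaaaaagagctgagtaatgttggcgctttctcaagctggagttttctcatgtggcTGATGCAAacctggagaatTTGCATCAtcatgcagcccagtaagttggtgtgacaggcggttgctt
*Nupr1* (chr7:126625471-126625720, minus strand): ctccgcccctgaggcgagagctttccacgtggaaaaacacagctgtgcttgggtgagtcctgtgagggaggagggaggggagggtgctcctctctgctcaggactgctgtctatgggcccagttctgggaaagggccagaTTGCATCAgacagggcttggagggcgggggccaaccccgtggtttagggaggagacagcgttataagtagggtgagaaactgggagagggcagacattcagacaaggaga
The match in *Slc2a1* starts 36 bases before the transcript start and that in *Ddit4* 187 bases before it, while *Slc7a11* holds a pair of elements in opposite orientation, at 66 and 47 bases, and *Nupr1* 1 at 110 bases.

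The metabolic shifts were next set beside the other libraries of the same tables, by the median over list members of the log2 ratio to the mean of the NK set. For glycolysis this was 0.36 to 0.43 in the WT libraries, 0.035 to 0.077 in the *Hp1β/γ* mutant and 0.57 to 0.97 in the *Hp1α/γ* mutant of the same tables. Among tables with the NK set it was −0.29 to 0.032 in *Hp1β* and 0.27 to 0.36 in *Hp1α/β* mutants. The glycolysis shift of the WT set was thus not present in every library deposited beside it, and the values of both kinds of table overlapped. For the hypoxia list the WT libraries, at 0.45 to 0.51, were above those of all other groups, of which the *Hp1α/β* mutant had the next highest, at 0.19 to 0.27. For cholesterol synthesis the WT libraries lay at 0.34 to 0.39, beside 0.42 to 0.43 in the *Hp1α* mutant and 0.31 to 0.34 in the *Hp1γ* mutant of the NK tables. The mutants of the WT tables had 0.28 to 0.37 (*Hp1α/γ*) and 0.18 to 0.20 (*Hp1β/γ*). The remaining mutants of the NK tables had 0.19 to 0.21 (*Hp1α/β*), −0.016 to 0.057 (*Hp1β*) and −1.26 to −1.17 (triple). For the amino acid response the NK set, near 0 by construction, was the highest of all groups, with −0.13 to −0.085 in the *Hp1α/β* mutant and −0.27 to −0.22 in the WT set. These groups differ in genotype as well, and no test was made between them.

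**Figure D4:**
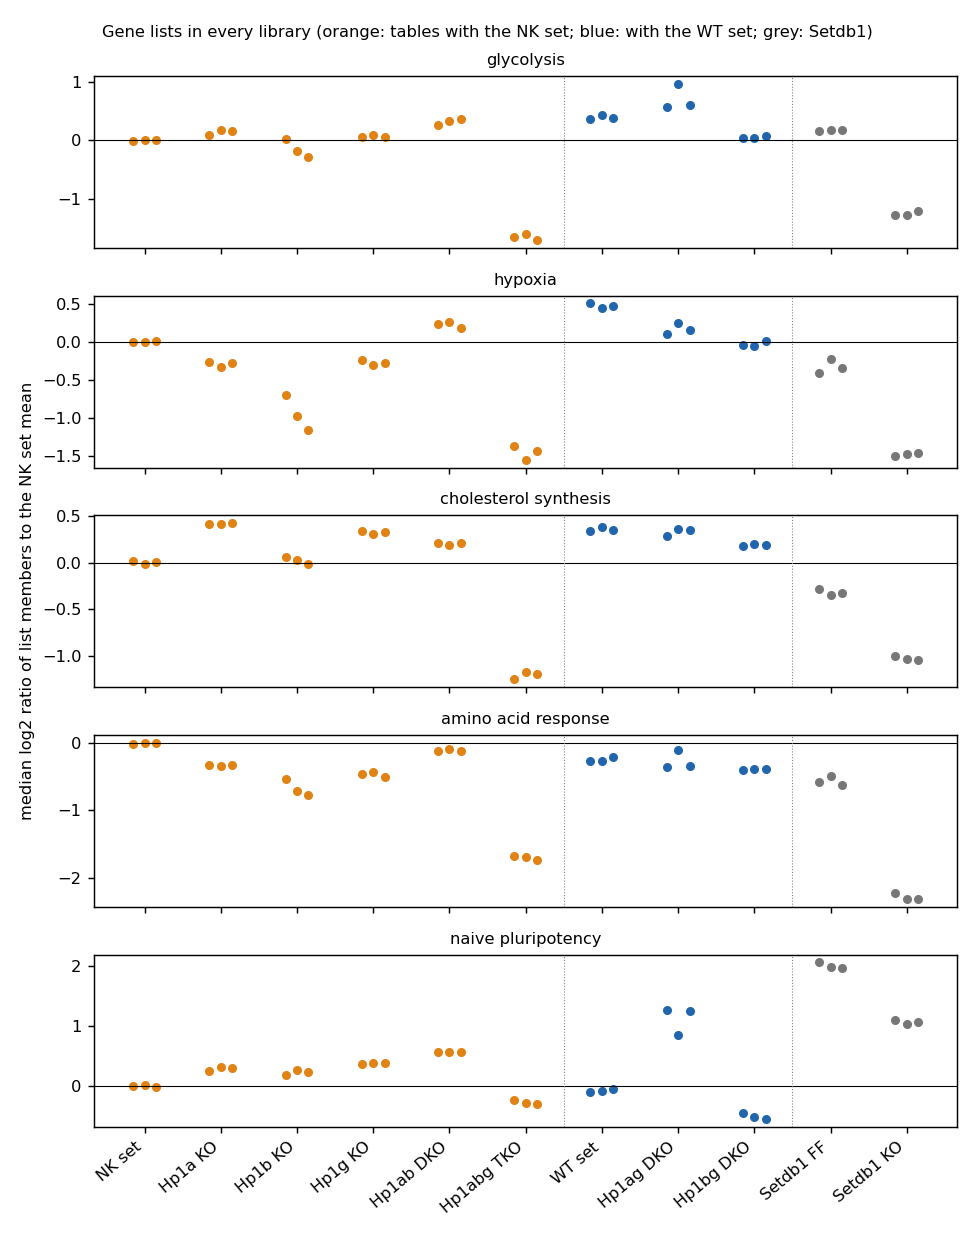
Median log2 ratio of list members to the mean of the NK set (vertical axes) in each of the 33 libraries (points), by group, for 4 metabolic lists and the naive pluripotency list. The WT set stands above the NK set for glycolysis, hypoxia and cholesterol synthesis and below it for the amino acid response, while the naive list lies at −0.10 to −0.055 in the WT set and at 1.96 to 2.05 in *Setdb1* F/F ESCs, the control of another table.

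For the naive list, the WT set lay nearer to the NK set than any other group did, with no test of the difference. This list had a median ratio of −0.10 to −0.055 in the WT libraries. The nearest other groups were *Hp1β* (0.18 to 0.26), triple (−0.30 to −0.23) and *Hp1α* mutants (0.24 to 0.32). Further off were *Hp1α/β* (0.55 to 0.56), *Hp1β/γ* (−0.55 to −0.45) and *Hp1α/γ* mutants (0.85 to 1.27). *Setdb1* F/F ESCs, which carry a floxed allele and no deletion, had 1.96 to 2.05. By group means the WT set was also nearest for the core and the formative and primed lists. It was not for the shared list, where *Hp1α* and *Hp1γ* mutants and *Setdb1* F/F ESCs lay nearer. There the WT libraries had −0.12 to −0.077 and *Hp1γ* mutants −0.025 to 0.019. None of the 53 pluripotency genes had all 9 libraries of the tables with the WT set on one side of all 18 libraries of the tables with the NK set. Of all genes tested 3.26% did, so a count of 0 is near the background for a list of this length.

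In the other signalling and stress lists the share of genes past the adjusted p, 24.8% over all genes tested, ran from 21.4% for BMP and ID to 54.5% for heat shock. In the FGF and ERK list 4 of 16 genes rose and 3 fell at the adjusted p. *Ier3*, an immediate early gene whose protein ERK phosphorylates, was the called member, with 12.8, 11.5 and 11.8 CPM in the NK libraries and 27.7, 25.8 and 27.3 CPM in the WT libraries and a log2 fold change of 1.16 ± 0.079 (SE, adjusted p = 2.26e-08). The feedback genes *Dusp6* and *Spry2* had −0.008 and −0.15 and did not pass. In the Wnt target list 3 of 12 rose (*Tcf7*, *Rnf43* and *Nkd1*) and 3 fell (*Notum*, *Myc* and *Ccnd1*). For the Nodal and Lefty list the counts were 1 and 4 of 15, and for the BMP and ID list 0 and 3 of 14. The p53 targets had 6 of 17 genes lower, among them *Mdm2* and *Ccng1* at −0.20 and −0.19, and 1 higher (*Pmaip1*), and the heat shock list 5 of 11 lower, led by *Hspd1* at −0.34, and 1 higher (*Bag3*). The interferon list had 6 of 13 higher and 1 lower, including the called *Oas1a* and *Xaf1*, which had 2.69 ± 0.383 and 2.07 ± 0.485 CPM in the WT set and 1.18 ± 0.542 and 0.998 ± 0.417 CPM in the NK set (SD, n = 3). The interferon median was 0.37, of a size with the metabolic medians. DESeq2 called *Oas1a* alone of these, and *Xaf1* was not past the test in the fit of 27 libraries or without the first or the third WT or the second or the third NK library.

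Of the lineage lists, the neural list had 4 of 8 genes lower in the WT set, against 12.5% of all genes tested, none higher and a median of −0.35, with *Pax6* called at 5.54, 6.3 and 3.58 CPM in the NK libraries and 2.67, 2.42 and 2.07 CPM in the WT libraries (−1.11, adjusted p = 0.00148), and *Olig2* at −0.51. The trophectoderm list had 4 of 10 higher, against 12.3% of all genes tested, and none lower. Those were *Krt18*, *Krt8*, *Tfap2c* and *Tead4*, at 0.81, 0.77, 0.65 and 0.35, and the list of 12 summed to 195 to 208 CPM in the NK set and 289 to 307 CPM in the WT set. The lowest log2 fold change of the tested members, −0.68, did not pass the adjusted p. At an unadjusted p under 0.05 in edgeR, 1 member was lower. *Gata3*, a defining factor of that lineage, had 0.926 ± 0.369 and 0.863 ± 0.247 CPM (SD, n = 3), and *Cdx2* and *Elf5* did not pass the filter. In the mesoderm list 2 of 6 tested genes, *Eomes* and *Hand1*, rose by 0.41 and 0.68, against 12.3% of all genes tested, and none fell. By DESeq2, 1 gene of the list was higher. Of 11 primitive endoderm genes only *Lama1*, a basement membrane chain, changed (−0.43), and of 16 germline genes *Sycp1* and *Rpl10l* fell (12.5%, the background share). The germline median was −0.23.

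Of 14 tested genes of fibroblasts, the feeder cells, 4 rose and 2 fell at the adjusted p (42.9%, against 24.8% of all genes tested). *Col1a1*, a collagen chain, had 5.91, 6.68 and 5.81 CPM in the NK libraries and 13.5, 18.8 and 14.3 CPM in the WT libraries (1.34, adjusted p = 2.18e-06), and *Col1a2* had 1.2, 1.53 and 1.45 CPM against 4.89, 6.6 and 6.9 CPM (2.13, adjusted p = 1.29e-06). Both were called, and for both the sets did not overlap. *Thy1* and *Acta2* rose by 0.63 and 0.74, and *Twist1* and *Tagln* fell, with log2 fold changes of −0.58 and −0.30. The defining marker *Dcn* was at 1.41 ± 0.245 CPM in the NK set and 0.875 ± 0.141 CPM in the WT set, *Col3a1* at 0.733 ± 0.366 and 1.04 ± 0.181 CPM (SD, n = 3), and *Postn* and *Prrx1* did not pass the filter. The 20 genes summed to 121 to 130.4 CPM in the NK set and 132 to 149 CPM in the WT set, with 3 and 2 of them at no count, respectively. In bulk libraries, more cells of a type and more RNA per cell cannot be told apart, and the part of feeder RNA in the differences above was not tested.

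Imprinted genes, which are known to drift in ESC culture, were not called. At the adjusted p 5 of 33 rose and 8 fell (39.4%, against 24.8% of all genes tested). *Igf2*, paternally expressed, rose from 45.5 ± 1.5 to 79.4 ± 1.94 CPM (SD, n = 3, log2 fold change 0.80, adjusted p = 9.06e-09). *Kcnq1ot1* and *Blcap* rose by 0.75 and 0.82, and the noncoding RNAs *Meg3* and *Rian* of one cluster fell, with log2 fold changes of −0.47 and −0.41. The HP1 and H3K9 methylation list had 2 higher and 2 lower of 15, all within −0.21 and 0.22. In the cell cycle list 5 of 23 rose and 2 fell, within −0.17 and 0.35. These shares, 26.7% and 30.4%, were near that of all genes tested. Chromosome medians of the log2 fold change, for autosomes and the X, ran from −0.062 (chromosome 16) to 0.056 (chromosome 8).

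Of the other lists, contractile genes under SRF and YAP had 7 of 18 genes higher and 4 lower at the adjusted p (61.1%, against 24.8% of all genes tested). The skeletal actin gene *Acta1* was called, at 1.43, 1.16 and 1.31 CPM in the NK libraries and 3.26, 4.49 and 3.26 CPM in the WT libraries (log2 fold change 1.5, adjusted p = 1.86e-04). Oxidative phosphorylation subunits had 17 of 78 higher and 5 lower (28.2%), and none was called. Their median was 0.043, near that of all genes and apart from the median of glycolysis. The NRF2 and glutathione list had 3 higher and 4 lower of 17 (41.2%), immediate early genes 2 and 2 of 14 (28.6%), and DNA methylation genes 1 and 3 of 9 (44.4%). Of 29 clustered protocadherins tested, 1 rose and 2 fell (10.3%).

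Calls were more frequent among pseudogenes and noncoding RNAs than among protein-coding genes. Of protein-coding genes 3.24% were called, against 25.5% of 411 lincRNAs, 35.7% of 384 processed pseudogenes, 41.3% of 75 unprocessed pseudogenes and 16.8% of 309 antisense genes, and 454 of all calls were not protein-coding. The share called also fell with level, from 14.3% of genes under 1 CPM in the mean to 1.12% of those at 100 CPM or more.

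**Figure D5:**
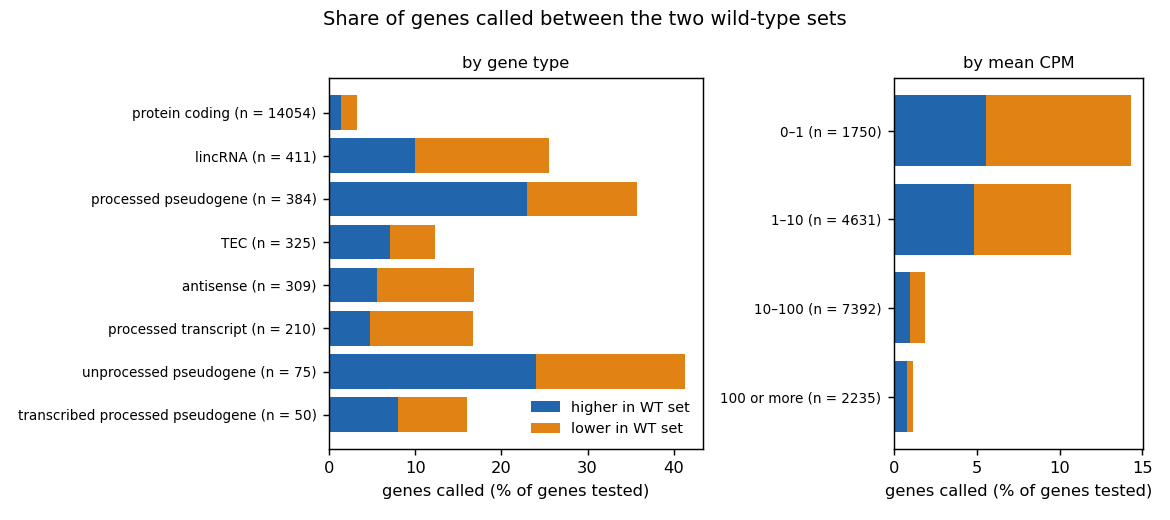
Share of tested genes called (horizontal axes, percent), higher (blue) or lower (orange) in the WT set, by GENCODE gene type on the left and by mean CPM of the 6 libraries on the right. Protein-coding genes and genes of at least 10 CPM have the lowest shares.

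By the naming rule, the 10 largest rises were *Gm44206*, *Gm20762*, *Gm13165*, *Eif4a-ps4*, *Gm10705*, *Gm40421*, *Gm37206*, *Gm48185*, *Gm19786* and *Gm9265*, none of them protein-coding. *Gm44206*, an antisense gene on chromosome 6 that shares exons with *Mbd4*, had no count in the NK libraries and 609, 499 and 547 CPM in the WT libraries, which is at least 3917-fold higher against a floor of 3 counts per library, and with *Mbd4* added its locus kept a log2 fold change of 4.33. The lincRNA *Gm40421* had 0.0772 ± 0.0708 CPM in the NK set and 83.7 ± 9.39 CPM in the WT set (SD, n = 3). The 10 largest falls were *Gm40040*, *Rps27a-ps2*, *Gm2379*, *Gm7854*, *Gm7807*, *Galntl6*, *Lsamp*, *Vmn2r-ps97*, *Gm10351* and *Fcgr1*. *Galntl6*, a glycosyltransferase-like gene, had 9.33, 8.58 and 9.78 CPM in the NK libraries and no count in the WT libraries, at least 65.9-fold lower. *Lsamp*, a neural cell adhesion gene, had 9.33, 7.74 and 9.54 CPM and no count, at least 63.3-fold lower, and *Fcgr1*, an immunoglobulin receptor gene of myeloid cells, 7.25, 6.81 and 7.36 CPM and no count, at least 51-fold lower. *Rps27a-ps2*, a pseudogene, had 67.9, 51.6 and 51 CPM in the NK libraries and no count in the WT libraries, and its parent *Rps27a*, a ribosomal protein fused to ubiquitin and named after its values were seen, had 481, 449 and 456 CPM and 754, 630.3 and 626 CPM. Reads of such pairs cannot be told apart with certainty. Genes named here with no count in one set passed the filter only through the other set. Their calls and their rank were thus fixed by the filter and are a description.

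Many of these differences held for every library of a table. Of the called genes, 404 (44.4%) had the 2 kinds of table fully apart, mutants included. All 9 libraries of the tables with the WT set then lay on one side of all 18 of the tables with the NK set. Of the 404, 161 were higher and 243 lower in the former, where 1.53% and 1.73% of all genes tested were so placed. The 6 libraries compared are among the 27, so only genes whose sets do not overlap can be so placed, which favours called genes. Without the genes at 0 in one kind of table, 323 called genes were so placed. In *Setdb1* F/F ESCs, which stand in another table, 128 of the 404 genes lay with the NK tables, 168 with the WT tables and 108 with neither. Of the genes tested, 67 had no count in any library of the WT tables and 14 none in the NK tables. Since they passed the filter only through the other set, their calls were fixed by the filter and are a description. Those with the highest CPM were *G630055G22Rik*, *Gm28960* and the transcription factor gene *Tfap2d* among the former (533 ± 17.5, 87.9 ± 2.09 and 29.6 ± 1.05 CPM in the NK set, SD, n = 3) and *mt-Atp6*, *Gm23935* and *Gm28047* among the latter (204 ± 68.6, 97.3 ± 21.1 and 24.7 ± 3.35 CPM in the WT set). The locus of *mt-Atp6*, which overlaps *mt-Atp8* and *mt-Co3*, had a log2 fold change of 1.43, and that of *Gm28047*, which overlaps *Atf7*, 0.53. For a gene that differs in this way, the set and the kind of table cannot be told apart.

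Of the called genes, 298 (32.8%, against 35.7% of all genes tested) have exons that overlap another gene in GENCODE M21, a share near the background, and after the counts of overlapping genes were summed, 103 of these were still called as loci. Among these genes, chosen after their values were seen, the SUMO gene *Sumo3* (chr10:77606097-77618331) had 64 ± 9.0 CPM in the NK set and 166 ± 5.24 CPM in the WT set, and *Gm49325*, which overlaps it, 106 ± 6.45 and 0.316 ± 0.284 CPM (SD, n = 3). Their locus had a log2 fold change of −0.011 (adjusted p = 0.88). *Exosc6*, an exosome subunit gene, had 6.22 ± 0.373 CPM in the NK set and no count in the WT set. It passed the filter only through the NK set, and the locus that it shares with *Aars* had −0.15. Other neighbours did not cancel. *Cmss1* and *Filip1l* overlap on chromosome 16, on opposite strands and without shared exons, and had 36.2 ± 0.51 and 255 ± 26.5 CPM in the NK set and 704 ± 72.7 and 1.98 ± 0.538 CPM in the WT set. For the mitochondrial *mt-Nd4* and *mt-Nd4l*, subunits of complex I that overlap by a few bases, the values were 6763 ± 94.2 and 3.89 ± 2.61 CPM in the NK set and 1824 ± 149 and 26.1 ± 3.22 CPM in the WT set, and their locus stayed lower in the WT set (−1.87).

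In the list of *Zfp900* to *Zfp999* zinc fingers, KRAB and related factors of high sequence similarity, 3 genes were called higher and 3 lower of 62 tested. Of all genes tested 2.55% were called higher and 3.12% lower. At the adjusted p alone 9 of the zinc fingers rose and 21 fell (48.4%, against 24.8% of all genes tested), with a median of −0.23. *Zfp965* had 61.9, 59.8 and 61.7 CPM in the NK libraries and 2.08, 0 and 2.35 CPM in the WT libraries, a log2 fold change of −5.39, and *Zfp972* had 1.06, 1.53 and 1.89 CPM against 20.9, 17.6 and 18.3 CPM, a log2 fold change of 3.66. These were separated over all 27 libraries of both kinds of table, and as members of a family with near-identical copies their counts are uncertain. Ribosomal protein genes were not called, but 31 of 82 rose and 5 fell at the adjusted p (43.9%, against 24.8% of all genes tested). Of the 82, 17 (20.7%, against 1.53% of all genes tested) were higher in every library of the WT tables. The latter included *Rps29*, *Rps28* and *Rpl38*, with log2 fold changes of 0.79, 0.77 and 0.64. Of the noncoding RNAs without a poly(A) tail, *Rn7sk* had 0.462, 0.603 and 0.484 CPM in the NK libraries and 5.29, 5.07 and 5.24 CPM in the WT libraries, and *Rmrp*, which overlaps another gene, 0.17 ± 0.115 and 2.64 ± 0.458 CPM (SD, n = 3). Both were called, and the locus of *Rmrp* had a log2 fold change of 0.40.

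Of 739 protein-coding genes that span over 200 kb, a limit set after the values were seen, 86 were called lower and 13 higher, against 181 and 175 of 13315 shorter genes. The long genes' median log2 fold change was −0.043, near that of all genes, and their median level was 9.21 CPM against 23.9 CPM. Among biological process terms of the deposited GO annotation with 50 to 500 tested genes, the share called was highest for DNA recombination (18.2% of 203), behavioral fear response (17.9% of 56), sensory perception of smell (16.4% of 55), glutamatergic synaptic transmission (the same share, or 9.52% where each library had to hold 10 counts) and the glycolytic process (16.1% of 56). The median share over all terms was 3.63%. Of the called genes, 33 of 37 for DNA recombination and 6 of 9 for the glycolytic process were not protein-coding. The same held for 7 of 10 for behavioral fear response and 7 of 9 for glutamatergic synaptic transmission, but 0 of 9 for sensory perception of smell. In the glycolytic process 28 genes rose and 3 fell at the adjusted p. The largest terms without a call were Wnt signaling pathway (193 genes), methylation, liver development, negative regulation of cell migration and exocytosis.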

How the data were processed

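The expected counts (estimated counts per gene) deposited by the authors carry no normalization and were rounded to whole numbers. TPM, deposited by the authors beside them, are scaled for length and depth and served only to compare levels between genes. The TPM columns of the other libraries (42) and the authors' own fold changes and adjusted p-values were not used. The submitters' processing notes name GRCm38.p5, TopHat2 2.1.1, RSEM and edgeR. 15 count columns repeat between tables, with no differing value. The study's methods name a stranded total RNA kit and the labels a TruSeq RNA kit, and which strand was counted is not given in the sources used here. Of 55487 genes, 55141 matched GENCODE M21 (GRCm38) by identifier, the source of positions and gene types.

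The 6 libraries were fitted in edgeR 4.0.16 (R 4.3.3, limma 3.58.1) with filterByExpr at a minimum count of 10, TMM, estimateDisp, glmQLFit and glmQLFTest, and Benjamini-Hochberg adjustment over all genes tested. At 20227691 counts, the lowest total, 10 counts equal 0.494 CPM, and genes below that were mostly not tested. Gene lists (41, and 2 added later) are described by counts and medians. They and the comparison were chosen with earlier results of these data known. Named are tested pluripotency list members, up to 4 called members of other lists, the 10 largest rises and falls among called genes with at least 5 CPM, no overlap and a count in both kinds of table, and the 3 highest genes at 0 in one kind of table. Other genes were named after their values were seen. Some list members enter the counts and medians and are not reported by name. Same-numbered libraries shared only a number. DESeq2 1.42.0 and other settings are alternatives.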

Additional observations from a re-analysis of the deposited data

How the results depend on the processing

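The number of genes called (909) moved by more than 1.5 times under 3 settings. With at least 10 counts in every library it was 386 (212 higher, 174 lower), at the adjusted p without a fold threshold 3972 (1967 higher, 2005 lower), and among protein-coding genes alone, chosen after seeing the data, 455 (188 higher, 267 lower). It was 908 with RLE size factors, 920 with DESeq2, 930 in a fit of 27 libraries, 1191 without a filter, 826 without genes at 0 in one kind of table, 909 with GC content and length offsets and 725 for counts summed over overlapping genes (chosen after seeing the data). Without 1 library it was 887 to 948. The replicate block gave 908 calls, 887 of them shared with the fit without it. Deviations of same-numbered libraries correlated by −0.012 to 0.0004, so they share only a number.

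The median of the core pluripotency list was 0.066 with GC content and length offsets, and that of glycolysis 0.33. With counts summed over overlapping genes the amino acid response median was −0.15, and in the fit of 27 libraries 10 of its genes were lower. Without 1 library, the medians ran from −0.055 to −0.0061 (core), −0.11 to −0.041 (shared), −0.13 to −0.079 (naive), −0.0895 to 0.024 (formative and primed), 0.40 to 0.44 (glycolysis), 0.45 to 0.53 (hypoxia), 0.34 to 0.38 (cholesterol) and −0.28 to −0.21 (amino acid response), so the sign of the formative and primed median rests on single libraries (0.001 without the first WT library, 0.024 without the second NK library). Without the first NK library *Fgf5* was called, 1 pluripotency gene against 0 under the other settings. Over 203 named genes, 2640 of 2793 comparisons stayed on their side of the adjusted p (22 of them with a change of sign in a gene that passed in neither, *Nanog* and *Hk2* among them), 116 lost it, 37 gained it, and 0 changed sign where the adjusted p was passed. Depth limits low genes, where 251 of the calls had a mean under 1 CPM. The cause of these moves was not tested.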
